A study of Mus musculus with 4 samples.

Results

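The NP_MITF_ebox_60 library (NP library) is a set of 256 designed DNA probes that carry an MITF E-box, 4 varied bases directly after it, and a downstream stretch that differs at 6 positions from that of the MITF_ebox_60 library (MITF library). The members were taken by name, 256 of the 6126 probe names on each array, and each was paired with the MITF probe that has the same 4 varied bases. Neither choice used a measured value. The sources used here do not say what the prefix NP stands for. The study measured antibodies against UV photoproducts on 4 arrays of synthetic DNA. One array was irradiated and stained with the anti-CPD antibody, one was stained with it without irradiation, and the anti-6-4PP antibody was used on one irradiated and one unirradiated array. Dilutions were 1 in 400 for the first antibody and 1 in 80 for the second. Each group was thus 1 array, and the mouse named in the labels is not the source of the probes. The condition field of the labels set the groups. The titles of both 6-4PP arrays state the reverse, and the deposited file names go with the field. The sources used here give neither the UV dose nor the scanner settings, nor how the probes were made double-stranded or which end was fixed to the slide.

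UV light links adjacent pyrimidines on one DNA strand. Cyclobutane pyrimidine dimers (CPD) form most readily at TT, and 6-4 photoproducts (6-4PP) form readily at TC. The yield at a given dipyrimidine is known to depend on the bases around it and on the shape of the helix. MITF is a basic helix-loop-helix leucine zipper transcription factor of the melanocyte lineage that binds the E-box CACGTG, and bases next to the E-box affect how well such factors bind. Dipyrimidines on the strand written in the files are called listed below, and those on its complement are called opposite.

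Each probe of both libraries has 60 bases. The E-box occupies positions 10 to 15, the varied bases positions 16 to 19, and positions 20 to 25 are the same in both libraries. The changes, with positions counted from 1 at the 5′ end, the MITF base first and the NP base last, are C26T, G27A, A31G, A33G, C38T and C50T. The nearest one lies 7 bases past the end of the varied window. The last 10 bases are shared by every library probe on the array. The pairs below are shown because they carry the results. AGTC and TTCG had the largest differences on the irradiated 6-4PP array in either direction, CATT had the largest on the irradiated CPD array after spatial adjustment, and GTAA differed most on the unirradiated arrays. Capitals mark the positions that differ between the libraries, and the varied bases stand just after cacgtg.
NP_MITF_ebox_60_AGTC: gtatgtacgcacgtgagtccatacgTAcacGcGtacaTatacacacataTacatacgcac
MITF_ebox_60_AGTC: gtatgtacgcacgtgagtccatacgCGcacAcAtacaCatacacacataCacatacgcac
NP_MITF_ebox_60_TTCG: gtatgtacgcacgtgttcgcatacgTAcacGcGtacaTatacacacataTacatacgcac
MITF_ebox_60_TTCG: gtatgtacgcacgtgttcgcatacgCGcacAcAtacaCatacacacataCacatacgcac
NP_MITF_ebox_60_CATT: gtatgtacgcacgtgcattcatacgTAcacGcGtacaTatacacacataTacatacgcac
MITF_ebox_60_CATT: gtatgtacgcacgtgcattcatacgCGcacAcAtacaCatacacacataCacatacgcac
NP_MITF_ebox_60_GTAA: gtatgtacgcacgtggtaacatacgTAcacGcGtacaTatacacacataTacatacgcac
MITF_ebox_60_GTAA: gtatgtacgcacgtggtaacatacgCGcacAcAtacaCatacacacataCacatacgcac

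None of the 6 changes made or removed a dipyrimidine. The 41 bases after the varied window alternate purines and pyrimidines in both libraries and hold 0 dipyrimidines on either strand. Paired probes therefore had the same number and kind of dipyrimidines. In 16 pairs this number was 0, in 160 it was 2, and in 80 it was 4, counting both strands. The stretch itself differed in other ways. It held 17 G or C bases in the NP library and 19 in the MITF library, 8 TA steps in the NP library and 5 in the MITF library, and 4 CG steps in the NP library and 3 in the MITF library. The longest run of bases whose reverse complement lay further along the same probe, at least 3 bases away, was 9 to 10 bases in the NP library (median 9) and 6 to 10 bases in the MITF library (median 6).

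The value of a probe was the median intensity of its unflagged spots, of 10 printed. The fewest unflagged spots behind a value was 8. Replicate spots of one probe spread with a median SD, on the log2 scale, of 0.58 for NP probes and 0.75 for MITF probes on the irradiated CPD array. After the deposited spatial adjustment this spread was 0.29 for NP and 0.30 for MITF probes. On the irradiated 6-4PP array it was 0.27 and 0.28, and on the unirradiated arrays it was at most 0.21 for either library. Surroundings on the slide were alike for the libraries. The median local intensity around their spots was 4390.25 for NP and 4380.75 for MITF probes on the irradiated CPD array, and 15315.5 for NP and 15275.5 for MITF probes on the irradiated 6-4PP array. Intensity had a ceiling, the highest value that occurred, and on the irradiated 6-4PP array the median of 11 NP probes and 26 MITF probes lay there, in 27 pairs altogether. Those values are lower bounds. The amount of DNA per spot was not measured, because the column that could hold it read 1 at every spot.

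On the irradiated CPD array NP probes were brighter than their MITF partners. The NP library had a median intensity of 3948.5 (range 1742.5 to 18982.5) and the MITF library one of 3006 (range 898 to 12923.5). The NP probe was brighter in 214 of 256 pairs, and the median difference, NP minus MITF on the log2 scale, was 0.45 (quartiles 0.11 and 0.70), a 1.37-fold difference. Among the 21 libraries with 4 varied bases, ranked from the lowest median, the NP library was number 8 and the MITF library number 1 on this array. After spatial adjustment the median difference was again 0.45, with the NP probe brighter in 236 pairs.

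On the irradiated 6-4PP array the libraries did not separate as a whole. The median intensity was 14473.5 for the NP library (from 3687.5 to the ceiling) and 14688 for the MITF library (from 3985.5 to the ceiling). The median difference was 0.01 (quartiles -0.26 and 0.28), with the NP probe brighter in 131 pairs, dimmer in 115 and equal in 10. Single pairs lay well away from 0 on both sides, as described below.

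Without irradiation, both libraries were close to the array medians of 31 for CPD and 56 for 6-4PP. On the unirradiated CPD array the median was 30 for the NP library and 29 for the MITF library, with a median difference of 0.05 and the NP probe brighter in 154 pairs and dimmer in 88. On the unirradiated 6-4PP array it was 50 for the NP library and 58 for the MITF library. There the NP probe was dimmer in 240 pairs and brighter in 10, and the median difference was -0.19.

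Whether a pair differed beyond its spots was tested with limma on the log2 intensity of the spots, 10 against 10, in one fit over the 256 pairs of an array with Benjamini-Hochberg adjustment. Such a test compares spots of 1 array and says nothing of a repeat hybridisation. For the CPD antibody after irradiation 51 pairs passed an adjusted p of 0.05, 19.9% of those tested, each with the NP probe brighter. With spatially adjusted intensity 186 pairs passed (72.7%), the NP probe being brighter in 184 (71.9%) and dimmer in 2 (0.781%). Without irradiation 9 pairs passed for this antibody (3.52%), with the NP probe brighter in 6 (2.34%) and dimmer in 3 (1.17%). Spatial adjustment made these 20 pairs (7.81%), 16 brighter (6.25%) and 4 dimmer (1.56%). For the 6-4PP antibody after irradiation 98 pairs passed (38.3%), with the NP probe brighter in 54 (21.1%) and dimmer in 44 (17.2%). After spatial adjustment 108 passed (42.2%), 53 brighter (20.7%) and 55 dimmer (21.5%). Without irradiation 165 passed for this antibody (64.5%), or 181 after spatial adjustment (70.7%), each with the NP probe dimmer. The same fit was run on 640 sequences printed under a second name, where the sequence is identical. It called 0 of them on every array. Adjustment over such a set alone leaves few to call, so this 0 is not a call rate for the 256 pairs. An unadjusted limma p under 0.05 was reached by 40 of the 640 with CPD after irradiation and 23 without it. With 6-4PP it was reached by 24 after irradiation and 35 without it. Of the 256 NP and MITF pairs it was reached by 92, 30, 123 and 178 in the same order.

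The order of the varied bases was largely shared by the libraries under UV. Over the 256 pairs, log2 intensities of NP and MITF probes correlated with a Pearson r of 0.94 (Spearman rho 0.94) on the irradiated 6-4PP array and 0.80 (rho 0.78) on the irradiated CPD array, or 0.90 with spatially adjusted intensity. These are descriptions over related sequences on one array. Of the 25 brightest probes of each library on the irradiated CPD array, 19 had the same varied bases, or 15 with spatially adjusted intensity. By unadjusted intensity ATTT led both libraries on the irradiated CPD array. It had 18982.5 ± 3301 for the NP probe and 12923.5 ± 2539 for the MITF probe (median ± SD over 10 spots). TTTT followed in both, with 15323.5 ± 1971 for NP and 10389.5 ± 1875 for MITF. TTTG, ATTG and ATTA completed the 5 brightest NP probes, between 12524.5 and 13489.5, and their MITF partners ranked 5, 13 and 3 in their own library. This order changed with spatially adjusted intensity. There MITF TTTT (11077.6) was above MITF ATTT (10443.1). In the NP library ATTT (19398) stayed above TTTT (13689.1), but CATT (16373.6) and GATT (15553.6) lay between them. By unadjusted intensity the 5 dimmest NP probes on this array were GCCG (1742.5), GCCA (1750), CGCC (1763.5), GGCA (1782.5) and CACA (1824.5). Their MITF partners lay between 1221 and 2297.5. On the irradiated 6-4PP array the probes at the ceiling have no order. Of the 5 NP probes just below it, ATAT (65454), GGAT (65022), ATCC (64944), ATTC (63655.5) and GGTT (61895.5), every MITF partner was at the ceiling. CACA was the dimmest NP probe there, with 3687.5 against 4064.5 for its MITF partner.

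The difference between the libraries on the irradiated 6-4PP array went with the strand that carried the pyrimidines. Grouped by the number of pyrimidines among the 4 varied bases as listed, the median NP minus MITF difference was -0.43 for 0 pyrimidines (16 pairs), -0.27 for 1 (64 pairs), 0.06 for 2 (96 pairs), 0.27 for 3 (64 pairs) and 0.20 for 4 (16 pairs). With 0 listed pyrimidines the NP probe was dimmer in all 16 pairs, and 7 of these passed limma's test. With 3 it was brighter in 48 of 64 pairs, of which 30 passed, against 2 that passed in the other direction. Because a purine faces a pyrimidine, windows without a listed pyrimidine carry all of theirs on the opposite strand. Pairs at the ceiling were kept in these groups. The unirradiated 6-4PP array ran in the same order at its low level. There the median difference was -0.29 for 0 listed pyrimidines, -0.24 for 1, -0.19 for 2, -0.16 for 3 and -0.05 for 4.

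Listed and opposite steps of each dipyrimidine type divided the pairs in the same order on the irradiated 6-4PP array. In the 38 pairs with TT on the listed strand and none opposite, NP probes had a median of 33395 and MITF probes one of 28079.5. Their median difference was 0.30, and of the pairs that passed, the NP probe was brighter in 17 and dimmer in 1. In the 38 pairs with TT on the opposite strand and none listed, the medians were 13170.8 for NP and 17225.5 for MITF. Here the median difference was -0.39, and the 17 pairs that passed all had the dimmer NP probe. With TC listed and not opposite (71 pairs) the median difference was 0.20, with 22 pairs passing in the NP direction and 6 in the other. With TC opposite and not listed (71 pairs) it was -0.31, with 3 passing in the NP direction and 26 in the other. For CT it was 0.18 listed and -0.37 opposite (45 pairs each), or 0.09 and -0.40 with spatially adjusted intensity. For CC it was 0.20 listed and -0.09 opposite (62 pairs each), or 0.14 and -0.06 with spatially adjusted intensity. These classes overlap, since a window can hold several steps.

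Grouping by the base next to the E-box divided the pairs on the irradiated 6-4PP array too, but this overlaps the divisions above. The E-box ends in G, so A as the first varied base always makes a TC on the opposite strand. G as the first varied base always makes a CC there. With A as the first varied base the median difference was -0.40, and the NP probe was dimmer in 47 of 64 pairs, with 27 pairs passing in that direction and 3 in the other. With T it was 0.25, with 24 passing in the NP direction and 4 in the other. It was 0.21 with C and -0.09 with G.

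The largest differences on the irradiated 6-4PP array belonged to single windows. The NP probe with AGTC had 27404 (spots 24579 to 30852), and its MITF partner was at the ceiling (spots from 42005 to the ceiling). The ratio of these medians was 2.39, with the MITF median set to the ceiling, and 2.15 with spatially adjusted intensity. The spot ranges did not overlap, and the limma difference, with saturated spots at the ceiling, was -1.13 ± 0.08 SE (adjusted p = 3.13e-09). AGAC had 23377 (spots 15430 to 33040) in the NP library and 53020.5 (spots from 40329 to the ceiling) in the MITF library, adjusted p = 4.18e-07 by limma. ATAC and ATGT followed at -1.06 and -1.03 and passed as well. AAAG, the fifth, had a difference of -1.02 and did not pass (adjusted p = 0.124 by limma), with NP spots from 9578 to the ceiling and MITF spots from 6710 to 43717. All 5 windows begin with A and thus have a TC on the opposite strand. Most also carry listed steps: AGTC and ATGT have a listed TC, and AGTC, AGAC and ATAC a listed CC. With spatially adjusted intensity the 5 lowest were AGTC (-1.11), GTAT (-1.01), ATAC (-0.98), ATGA (-0.96) and AGAC (-0.90), which all passed limma's test, and 3 of them were among the unadjusted 5. Of these, GTAT begins with G, and it has a listed TC and no opposite TC.

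In the other direction, TTCG had 40050.5 (spots from 32959 to the ceiling) in the NP library and 20425 (spots 12934 to 26995) in the MITF library. The spot ranges were again apart, and the limma difference was 1.08 ± 0.13 SE (adjusted p = 1.05e-06). CTTG had 27669 (spots 22255 to 36127) in the NP library and 15911 (spots 12812 to 20203) in the MITF library. TTTG (difference 0.90), CTTA (0.71) and TACG (0.67) completed the 5 highest, and all 5 passed limma's test. Of these, 4 have TT on the listed strand and none opposite, as do 38 of all 256 pairs. The other, TACG, has no dipyrimidine outside the shared end. With spatially adjusted intensity TCTG (0.74) and TTGC (0.63) took the places of CTTA and TACG, and both passed.

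Turning a window round puts its pyrimidines on the other strand without altering the dipyrimidine types in the probe, because every window lies between the same G and C. The bases outside that G and C stay in place, so the turn is local. There are 80 such couples with unequal numbers of listed pyrimidines, and 16 windows read the same on both strands. On the irradiated 6-4PP array the version with more listed pyrimidines exceeded its turned partner by a median of 0.93 on the log2 scale in the NP library and 0.51 in the MITF library. The excess was larger in the NP library in 73 of the 80 couples. Couples with probes at the ceiling were kept. Since 26 MITF but 11 NP medians lay there, the ceiling can understate the excess more in the MITF library. For ATTT and its turned partner AAAT, both MITF probes were at the ceiling. For the 16 couples with 4 listed pyrimidines the excess was 1.35 in the NP library, a 2.55-fold difference, and 0.59 in the MITF library, a 1.51-fold difference. It was larger in the NP library in all 16. For the 38 couples with TT listed and none opposite it was 1.30 in the NP library and 0.52 in the MITF library. On the unirradiated 6-4PP array it was 0.21 in the NP and 0.11 in the MITF library over the 80 couples, larger in the NP library in 56. There it was 0.44 and 0.22 for 4 listed pyrimidines, larger in the NP library in 13 of 16, and 0.01 and 0.05 for TT listed. On the unirradiated CPD array it was 0.16 and 0.09 over the 80 couples, larger in the NP library in 56. The cause was not tested.

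The TTTT and AAAA windows show the pattern in single probes on the irradiated 6-4PP array. In the NP library TTTT had 42804.5 (spots 37069 to 62674) and AAAA had 12859.5 (spots 9892 to 16076). In the MITF library TTTT had 35507 (spots 25250 to 56455) and AAAA had 20580.5 (spots 19509 to 34391). The TTTT probes of the libraries did not pass limma's test (difference 0.26 ± 0.12 SE, adjusted p = 0.0903), although they did with spatially adjusted intensity (0.40 ± 0.15 SE, adjusted p = 0.0335). The AAAA probe was lower in the NP library by 0.77 ± 0.11 SE (adjusted p = 1.19e-05 by limma). For CTTT and AAAG the NP library was at the ceiling and at 14489, and the MITF library at 57841.5 and 29449.

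With the CPD antibody, the pairs with TT were divided in the same order of strands, on top of the higher level of the NP library, and the other steps less clearly. On the irradiated CPD array the 38 pairs with TT listed and none opposite had medians of 9032.5 for NP and 5986.75 for MITF. The NP probe was brighter in all 38, with a median difference of 0.64, and 29 passed limma's test. The 38 pairs with TT opposite and none listed had medians of 4438 for NP and 3881.25 for MITF, with a median difference of 0.15, the NP probe brighter in 26, and 2 that passed. With spatially adjusted intensity these differences were 0.72 and 0.15. The median difference was 0.61 for TC listed and 0.35 for TC opposite, and 0.56 for CT listed and 0.43 for CT opposite. For CC it ran the other way, at 0.48 listed and 0.57 opposite, or 0.49 and 0.48 with spatially adjusted intensity. By the number of listed pyrimidines the median difference followed no steady order before adjustment, at 0.51 for 0, 0.26 for 1, 0.41 for 2, 0.61 for 3 and 0.59 for 4. With spatially adjusted intensity it was 0.36 for 0, 0.31 for 1, 0.39 for 2, 0.63 for 3 and 0.65 for 4, a rise from 1 to 4. Of the turned couples with TT listed, the listed version exceeded the turned one by 1.11 in the NP library and 0.67 in the MITF library, or by 1.13 and 0.47 with spatially adjusted intensity, and the excess was larger in the NP library in 31 of 38 couples, or 37 after adjustment. For the 16 couples with 4 listed pyrimidines it was 0.66 in the NP library and 0.61 in the MITF library, larger in the NP library in 9, or 0.56 and 0.29 and larger in 15 after adjustment. TTTT and AAAA had 15323.5 and 5701 in the NP library, against 10389.5 and 5365.5 in the MITF library.

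Named pairs on the irradiated CPD array depended on the intensity column. By unadjusted intensity the highest differences were those of CACT (2.06), CGAC (1.83), AAGG (1.60), CGCT (1.51) and GTAT (1.44), and all 5 passed limma's test. CACT had 6044 (spots 1923 to 9977) in the NP library and 1453 (spots 1073 to 7957) in the MITF library, so the spots of its probes overlapped widely (limma difference 1.17 ± 0.38 SE, adjusted p = 0.0326). After spatial adjustment the difference of these 5 pairs was 0.44 to 0.96, and each passed again. By spatially adjusted intensity the highest were CATT (1.45), TTGC (1.43), GATT (1.40), TTGG (1.38) and TGTT (1.36), and all 5 passed. None of these 5 was among the unadjusted 5. Each of them has a listed TT. CATT had an unadjusted 8272 (spots 6129 to 12213) in the NP library and 3689.5 (spots 2808 to 6282) in the MITF library, ranges that met only at their ends. Its limma difference was 1.17 in both columns, with an adjusted p of 0.000624 before and 1.80e-06 after spatial adjustment. At the other end AGGA (-0.88), AGCC (-0.63), AAAG (-0.53), CGCG (-0.52) and TAAG (-0.51) were lowest before adjustment. After it the lowest were AAAA (-0.35), GCAA (-0.32), CACA (-0.26), ACAA (-0.25) and CAAA (-0.24). These did not pass limma's test in their column, where the smallest adjusted p was 0.138 before and 0.087 after spatial adjustment.

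The pairs differed between the antibodies. Across the 256 pairs, NP minus MITF differences on the irradiated CPD and 6-4PP arrays correlated with an r of 0.20, a description over probes that share the same sequences. TTCG was brighter in the NP library on both, with 7808 (spots 5006 to 9645) in the NP library and 4198 (spots 2008 to 6140) in the MITF library on the irradiated CPD array (adjusted p = 0.00409 by limma). AGTC, the lowest pair with the 6-4PP antibody, had 5333 (spots 2273 to 8134) in the NP library and 3706 (spots 873 to 6838) in the MITF library with the CPD antibody. That difference did not pass before spatial adjustment (adjusted p = 0.10 by limma), and after it the NP probe was higher by 0.79 ± 0.14 SE (adjusted p = 2.09e-05 by limma). For this pair the NP probe was thus higher with one antibody after adjustment and lower with the other.

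The gap between the libraries went with dipyrimidine number in opposite directions for the antibodies. For 6-4PP after irradiation, probes with 0 dipyrimidines outside the shared end had a median of 5396.5 in the NP library and 4497.25 in the MITF library, those with 2 had 12500.5 and 11197.2, and those with 4 had 24876.8 and 29470.5, NP first in each case. The median pair difference was 0.28 at 0 dipyrimidines, 0.12 at 2 and -0.16 at 4. For CPD after irradiation the medians were 2527.75 in the NP library and 2348.25 in the MITF library at 0 dipyrimidines, 3582.5 and 2790 at 2, and 5250 and 3545.75 at 4, with pair differences of 0.28, 0.36 and 0.57. In the 16 pairs without a dipyrimidine the difference ranged from -0.52 to 0.74 on the irradiated CPD array and from -0.14 to 0.67 on the irradiated 6-4PP array, and the NP probe was brighter in 14 and 13 of them. Of these 16, limma called 0 for CPD, with 1 at an unadjusted p under 0.05 and 0 by the exact permutation test, and after spatial adjustment it called 7 higher and 1 lower. For 6-4PP limma called 3, each with the NP probe brighter, and the exact permutation test called 1.

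A least-squares fit of log2 intensity on the number of each step gave the size per step in each library. With the 6-4PP antibody after irradiation a TC step, on either strand, added 0.98 in the NP library and 1.22 in the MITF library, and a TT step 0.49 and 0.54. With the CPD antibody after irradiation a TT step added 0.65 in the NP library and 0.62 in the MITF library, and a TC step 0.38 and 0.28. CT and CC steps lay between -0.13 and 0.31 in both libraries on both arrays. The strands as separate terms divided these sums. For 6-4PP a listed TT added 0.79 in the NP library and 0.66 in the MITF library, and an opposite TT 0.19 and 0.43. A listed TC added 1.23 in the NP library and 1.37 in the MITF library, and an opposite TC 0.73 and 1.08. With the 6-4PP antibody the libraries thus lay closer for listed steps than for opposite steps. The share of the variance of the pair difference that the counts accounted for was 0.18 without strand and 0.48 with it. For CPD a listed TT added 1.01 in the NP library and 0.85 in the MITF library, and an opposite TT 0.28 and 0.39. A listed TC added 0.47 in the NP library and 0.31 in the MITF library, and an opposite TC 0.29 and 0.25. For TT and TC with the CPD antibody the libraries thus lay further apart for listed steps.

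A group of 3 windows stood out without irradiation, and their high signal belonged to the MITF library. GTAA had 42.5 (spots 39 to 49) in the NP library and 328 (spots 251 to 425) in the MITF library on the unirradiated CPD array. With the 6-4PP antibody it had 65 (spots 53 to 76) in the NP library and 427 (spots 354 to 558) in the MITF library. The spot ranges were far apart on both, and the MITF probe was 7.72-fold and 6.57-fold above the NP probe. GTCA had 52 (spots 39 to 61) in the NP library and 229.5 (spots 157 to 350) in the MITF library with the CPD antibody, and 69.5 (spots 61 to 90) against 275.5 (spots 149 to 432) with the 6-4PP antibody. GTGA had 30.5 (spots 26 to 40) in the NP library and 96.5 (spots 73 to 110) in the MITF library with the CPD antibody, and 48.5 (spots 43 to 62) against 146 (spots 118 to 176) with the 6-4PP antibody. These windows had been singled out in earlier results of these data for their signal in the MITF library, so their MITF level is a description, and so is the difference that it sets.

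Of all 6126 names, these MITF probes ranked 1, 2 and 3 on both unirradiated arrays. The next MITF probe had 45.5 on the unirradiated CPD array (GTTA) and 86 on the unirradiated 6-4PP array (CCTT). The NP probes kept a smaller excess on the unirradiated CPD array. GTCA was the brightest NP probe there and GTAA ranked 5 of 256, while GTGA ranked 95. With the 6-4PP antibody the NP probes ranked 8 for GTCA, 12 for GTAA and 162 for GTGA. GTTA, the fourth window of this form, had 39 in the NP library and 45.5 in the MITF library on the unirradiated CPD array, which did not pass (adjusted p = 0.424 by limma) before spatial adjustment and did after it (adjusted p = 0.00154 by limma). With the 6-4PP antibody it had 48.5 and 74, NP first (adjusted p = 4.04e-12 by limma). In the other 19 libraries with 4 varied bases, GTAA lay between 27 and 45.5 on the unirradiated CPD array and between 36 and 80.5 on the unirradiated 6-4PP array.

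Other sequence changes around GTAA also went with a non-UV value below that of the MITF probe. The 2 probes below are shown because they differ from the MITF probe without any of the 6 NP changes. In the first, capitals mark the bases that differ from the MITF library, which lie in the E-box, and it had 45.5 on the unirradiated CPD array and 80.5 on the unirradiated 6-4PP array, the highest of the 19 other libraries on both and above the NP probe. In the second, capitals mark the varied bases. It lacks the C that follows them in the MITF library, is 1 base shorter, and had 30.5 and 65.
MITF_sebox_60_GTAA: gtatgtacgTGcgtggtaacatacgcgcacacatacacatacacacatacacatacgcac
MITF_ebox_59_GTAA: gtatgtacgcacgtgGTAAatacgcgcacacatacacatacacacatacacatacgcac

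Under UV the 3 windows did not stand apart. GTAA had 4409.5 (spots 2586 to 5966) in the NP library and 4182 (spots 2038 to 8192) in the MITF library on the irradiated CPD array, and 9994.5 (spots 6615 to 20318) and 10519.5 (spots 8247 to 14415) on the irradiated 6-4PP array. Neither difference passed (adjusted p = 0.865 and 0.89 by limma). GTCA and GTGA did not pass on either UV array before spatial adjustment. After it, GTGA passed on the irradiated CPD array, with the NP probe higher by 0.65 ± 0.14 SE (adjusted p = 0.000162 by limma). The likeness of the libraries without irradiation depended on these windows. With them, r was 0.48 for CPD and 0.44 for 6-4PP, and without them 0.61 and 0.68. The NP minus MITF differences on the unirradiated arrays correlated with an r of 0.78 with these windows and 0.07 without them.

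The remaining non-UV differences were small in intensity. The largest NP excess on the unirradiated CPD array was that of ATCA, with 37 against 26, which did not pass limma's test (adjusted p = 0.132). TTTA (42 against 30.5), GATT (39.5 against 29) and CTTT (47.5 against 35.5) passed it, NP first. On the unirradiated 6-4PP array the highest differences were those of CCTC (0.16), CCCC (0.13), CTTC (0.12), CCCT (0.11) and CTGC (0.07), which did not pass limma's test (smallest adjusted p = 0.109). These 5 windows have C first. With C as the first varied base the median difference on that array was -0.09, and 11 of 64 pairs passed in the lower direction. With A, G or T it was -0.27, -0.22 and -0.22, with 55, 49 and 50 passing.

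The difference between the irradiated and non-irradiated array was larger in the NP library for both antibodies. With the CPD antibody, UV minus non-UV had a median of 7.05 on the log2 scale in the NP library and 6.64 in the MITF library. It was larger for the NP probe in 208 of 256 pairs, by a median of 0.41. With the 6-4PP antibody it was 8.18 in the NP library and 8.05 in the MITF library, larger for the NP probe in 172 pairs, by a median of 0.22. A difference in scanner gain that multiplies every intensity on an array is the same for both libraries and cancels in these comparisons. An additive offset or the ceiling would not cancel. With pairs at the ceiling left out, the 6-4PP median was 0.24 over 229 pairs. An additive offset was not tested. For 6-4PP the library difference was 0.01 after irradiation and -0.19 without it, as given above. The titles of the 6-4PP arrays would turn its sign. The MITF probes with the smallest gap were those with GTAA, at 3.67 for CPD and 4.62 for 6-4PP, against 6.70 and 7.26 for its NP partner. With 1 array per condition none of these differences could be tested.

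Set against another change to the same probes, the downstream stretch went with wider differences on the irradiated 6-4PP array than a changed E-box. The MITF_sebox_60 library has the stretch of the MITF library and an altered E-box. Fewer bases differ there than the 6 that differ in the NP stretch, so the changes are unlike in size. On the irradiated 6-4PP array the SD of the log2 difference over 256 pairs was 0.42 for NP minus MITF and 0.17 for sebox minus MITF, and the correlation with the MITF library was 0.94 for NP and 0.99 for sebox. The limma fit called 98 pairs for NP and 0 for sebox, where 27 sebox pairs had an unadjusted p under 0.05. For CPD the same fit called 51 for NP and 0 for sebox, with 11 sebox pairs at an unadjusted p under 0.05. There the SD of the difference was 0.43 for NP and 0.42 for sebox before spatial adjustment, and 0.32 and 0.17 after it. For 6-4PP without irradiation the fit called 165 for NP and 18 for sebox, with 65 sebox pairs at an unadjusted p under 0.05. For 64 pairs whose MITF sequence was also printed under a second name, the median absolute difference on the irradiated 6-4PP array was 0.24 for NP against MITF and 0.11 between names of the same sequence. For CPD after irradiation it was 0.35 and 0.20, or 0.36 and 0.08 with spatially adjusted intensity.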

How the data were processed

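The deposited files held spot intensity on a linear scale, per the file headers, with flagged spots left blank by the authors in the column used. A spatially adjusted intensity, also deposited, equalled that column times the array median over a local median. The sources used here do not name the scanner, the software or the flagging rule. Each array had 62976 spots, of which 61260 were library spots, 10 per name. Computed here were probe medians, log2 differences between paired probes, and counts of TT, TC, CT and CC steps without the 10 shared 3′ bases. limma 3.58.1 (R 4.3.3; lmFit, eBayes) tested spots within an array, with Benjamini-Hochberg adjustment over its 256 pairs. The fit was tested on simulated data. Named were the 5 highest and 5 lowest pair differences per array, the 5 brightest and dimmest NP probes per UV array, and GTAA, GTCA and GTGA. GTTA and the TTTT, AAAA and CTTT windows were added after their values were seen, as was the split by strand. The members, lists and comparisons were chosen with earlier results of these data known. Alternatives were the spatially adjusted intensity, flagged spots kept, pairs at the ceiling left out, the mean of log2 spots, library medians unpaired, an exact permutation test, an added minimum difference, the 6-4PP condition by title, and steps on the listed strand alone. The other libraries were not analysed here beyond the values given.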

Additional observations from a re-analysis of the deposited data

Results flagged for a closer look

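The median NP minus MITF difference had opposite signs between the antibodies without irradiation, and between the conditions with the 6-4PP antibody. The antibodies were also used at different dilutions. Without irradiation it was 0.054 with the CPD antibody and -0.19 with the 6-4PP antibody. With the 6-4PP antibody it was 0.011 on the irradiated array and -0.19 on the unirradiated one. Each value comes from 1 array, and neither difference between arrays was tested. The 0.054 and the 0.011 lie close to 0. The 0.011 turned to -0.021 when the library medians were compared without pairing.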

How the results depend on the processing

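Of 95 alternative values, 4 reversed, and 8 moved beyond a set limit, which was 1.5 times for a count, the median SD between replicate spots for a difference or slope, and 0.1 for r. The other 83 stayed within it, some of them while moving by over 1.5 times. The 6-4PP UV difference of 0.01 ranged from 0.0041 with flagged spots kept to 0.058 without pairs at the ceiling. With steps on the listed strand alone, the NP slopes for CPD became 0.094 per CT step, against 0.16, and -0.16 per CC step, against -0.06, and the MITF slopes for 6-4PP became 0.33 per TT step, against 0.54, and 0.11 per CC step, against 0.31. Spatially adjusted intensity changed the number of pairs whose spots differed to 186 for CPD after irradiation, against 51, and to 20 without it, against 9. A log2 difference of at least 1 as well left 17 pairs for CPD after irradiation and 3 without it, and 6 for 6-4PP after irradiation and 3 without it. The exact permutation test gave 50, 9, 95 and 158 pairs in the same order. The 6-4PP UV difference of 0.01 became -0.021 with unpaired library medians. The UV minus non-UV difference for 6-4PP became -0.22 with the condition by title. With steps on the listed strand alone, the MITF slope per CT step became -0.023 for CPD and -0.034 for 6-4PP after irradiation. Without GTAA, GTCA and GTGA, chosen after seeing the data, r without irradiation became 0.61 for CPD and 0.68 for 6-4PP. The cause of these changes was not tested. No paired analysis was possible because each group held 1 array, so that arrays could not be paired, whereas probes were paired by their varied bases. The number of arrays limits the precision, and the ceiling limits the 6-4PP UV median differences of 27 pairs. On that array 139 NP spots and 264 MITF spots were at the ceiling. Such spots also enter limma differences of other pairs, AGAC among them.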
